A study of Mus musculus with 4 samples.

Results

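A set of 10 chaperone genes, chosen by symbol out of the 27487 genes listed in the single-cell tables of mouse cortex, was followed across cell types, sexes and genotypes. They were the cytosolic HSP90 genes *Hsp90aa1* and *Hsp90ab1*, the HSP70 genes *Hspa1a*, *Hspa1b* and *Hspa8*, the HSP70 partners *Dnajb1* and *Hsph1*, the small heat shock protein gene *Hspb1*, and the endoplasmic reticulum (ER) chaperone genes *Hspa5* and *Hsp90b1*. All 10 were listed in each table. The study profiled dissociated cortex of 24-week-old Tg2576 mice, heterozygous for the transgene of the B6;SJL-Tg(APPSWE)2576Kha line, and of wild-type (WT) littermates by Drop-seq, which counts the 3′ ends of transcripts by unique molecular identifiers (UMIs). Tg2576 mice carry mutant human amyloid precursor protein under a prion promoter and serve as a model of amyloid-beta pathology. There were 4 groups, female WT, female Tg2576, male WT and male Tg2576, each with 1 library pooled from 9 mice. All mice were perfused with PBS before an enzymatic dissociation kit was applied, so every group shared that treatment and no undissociated tissue was compared here.

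HSP70 proteins hold unfolded protein segments in cycles of ATP use. J-domain proteins such as *Dnajb1* bring them clients and start ATP hydrolysis, and HSP110 proteins such as *Hsph1* release the spent nucleotide. HSP90 proteins finish the folding of kinases and receptors, and small heat shock proteins such as *Hspb1* hold unfolded proteins without ATP. *Hspa5* (BiP) and *Hsp90b1* (GRP94) do the work of HSP70 and HSP90 inside the ER. Heat and other protein stress raise the cytosolic set through heat shock factor 1, which binds repeats of GAA in alternating orientation, while the unfolded protein response raises the ER set through promoter elements that pair CCAAT with CCACG. *Hspa1a* and *Hspa1b* are also among the genes known to rise while living tissue is dissociated.

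The promoters of 7 of the 10 genes were in the RefSeq table used here (GRCm38.p6), 250 bases before and 50 bases after the transcript start, and *Hsp90aa1*, *Hsp90ab1* and *Hspa8* had no entry. The 5 windows below are shown because each holds a heat shock motif or the ER stress element, which not every window of the 7 genes did. They are the windows of *Hspa1a* (chr17:34972107-34972406, minus strand), *Hspb1* (chr5:135887669-135887968, plus strand), *Hsph1* (chr5:149636287-149636586, minus strand), *Hspa5* (chr2:34771840-34772139, plus strand) and *Hsp90b1* (chr10:86705395-86705694, minus strand), written along the gene. Capitals mark the heat shock motifs GAANNTTC and TTCNNGAA in the first 3, and the ER stress element, CCAAT and CCACG with 9 bases between on either strand, in the last 2.
Hspa1a: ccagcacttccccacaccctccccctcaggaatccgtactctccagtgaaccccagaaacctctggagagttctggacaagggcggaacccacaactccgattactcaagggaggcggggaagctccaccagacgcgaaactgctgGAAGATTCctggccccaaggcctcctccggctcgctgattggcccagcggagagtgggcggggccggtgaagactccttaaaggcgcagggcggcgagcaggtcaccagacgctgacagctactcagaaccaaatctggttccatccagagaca
Hspb1: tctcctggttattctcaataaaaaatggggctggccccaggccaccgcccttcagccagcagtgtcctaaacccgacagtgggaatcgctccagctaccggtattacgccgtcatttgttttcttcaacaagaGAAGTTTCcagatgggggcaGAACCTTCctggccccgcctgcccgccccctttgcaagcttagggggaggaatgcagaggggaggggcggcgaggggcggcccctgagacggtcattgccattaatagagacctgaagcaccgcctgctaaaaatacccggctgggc
Hsph1: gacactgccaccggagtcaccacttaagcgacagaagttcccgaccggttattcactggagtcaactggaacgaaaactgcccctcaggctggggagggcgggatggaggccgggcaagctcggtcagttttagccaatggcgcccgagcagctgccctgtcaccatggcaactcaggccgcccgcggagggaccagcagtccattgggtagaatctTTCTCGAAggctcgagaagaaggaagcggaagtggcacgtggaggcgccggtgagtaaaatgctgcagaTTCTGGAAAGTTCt
Hspa5: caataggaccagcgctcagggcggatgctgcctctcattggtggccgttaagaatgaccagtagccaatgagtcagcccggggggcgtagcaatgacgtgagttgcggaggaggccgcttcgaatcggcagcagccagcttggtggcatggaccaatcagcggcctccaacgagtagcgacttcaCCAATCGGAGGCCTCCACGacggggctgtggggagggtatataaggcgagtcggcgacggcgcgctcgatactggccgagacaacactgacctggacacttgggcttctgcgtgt
Hsp90b1: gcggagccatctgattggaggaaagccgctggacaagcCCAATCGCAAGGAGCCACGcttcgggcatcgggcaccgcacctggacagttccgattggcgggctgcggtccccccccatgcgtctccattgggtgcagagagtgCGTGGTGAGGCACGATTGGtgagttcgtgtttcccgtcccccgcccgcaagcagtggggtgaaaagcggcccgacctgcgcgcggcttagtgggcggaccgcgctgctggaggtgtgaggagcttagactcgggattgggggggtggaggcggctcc

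GAANNTTC stood in the windows of *Hspa1a*, *Hspa1b*, *Hspb1* and *Hsph1*, which is 4 of the 7 genes with a window. In *Hspa1a* and *Hspa1b* it lay between bases -104 and -97 from the transcript start, and *Hspb1* held it at -117 to -110 and at -97 to -90. *Hsph1* held 1 copy of GAANNTTC after the start and 2 of TTCNNGAA, 1 of which overlapped that copy. Among all 32851 windows of the table, 7.86% held GAANNTTC and 8.52% held TTCNNGAA, each of which reads the same on both strands. Either motif stood in 15.1% of all windows. The ER stress element stood in *Hspa5* at -65 to -47 and in *Hsp90b1* at -212 to -194 and -107 to -89, against 0.119% of all windows. It was also in 5 of 14 listed ER folding factors with a window (*Calr*, *Canx*, *Creld2*, *Dnajc3* and *Pdia6*). The 2 windows of *Dnajb1* held none of these letters. The windows of *Hspa1a* and *Hspa1b* were alike at 296 of 300 positions, and both genes lie on chromosome 17 (34956429 to 34959238 for *Hspa1b* and 34969359 to 34972156 for *Hspa1a*). Reads of the pair may have been divided between them, so their sum is given beside each gene.

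The libraries held 1926857 to 2294296 UMIs over 3000 barcodes each. Barcodes with 200 to 7000 genes and at most 20% mitochondrial UMIs were kept, which left 1044, 1249, 1010 and 1532 cells with a median of 909 to 1331.5 UMIs. Of the kept barcode sequences, 6 occurred in more than 1 library. *App* stood at 888.5 and 1178 UMIs per 1000000 UMIs (CPM) in the female and male WT libraries and at 1575 and 1567 CPM in the Tg2576 libraries, and *Xist* and *Ddx3y* went with the labelled sexes. The female libraries held more mitochondrial UMIs (15.4% and 17.2% of all UMIs, against 10.9% and 7.87% in the male libraries). Clusters were named from fixed markers, and the genes described here were left out of clustering. The named types were microglia (1863 cells), endothelial cells (961), astrocytes (922), oligodendrocytes (354), mural cells (163) and choroid plexus epithelium (108), all present in every library. Oligodendrocyte precursor cells (OPCs, 102) and neurons (98) were too few in some libraries for a test. Because the names came from these same lists, their levels are no separate check of the names. Each type's own marker list was higher in every library than the same list in any other type. The endothelial list, however, summed to 4642 to 13629 CPM in mural cells against 25482 to 31642 CPM in endothelial cells, a point that touches the mural values below.

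Levels are given as CPM of the summed UMIs of a cell type, in the order female WT, female Tg2576, male WT and male Tg2576 wherever 4 values follow each other. In the tests of cell types, each type was set against the mean of the other 5 over the 4 libraries, and a difference is a log2 value with its standard error. Microglia were higher for 6 genes and lower for 1, against 36.0% and 23.3% of all 6822 genes tested. Astrocytes were higher for 0 and lower for 6 (30.1% and 15.2% of all genes), oligodendrocytes higher for 3 and lower for 3 (21.9% and 15.9%), and endothelial cells higher for 3 and lower for 4 (29.3% and 13.2%). Mural cells were higher for 3 and lower for 2 (16.8% and 5.57%), and choroid plexus cells higher for 3 and lower for 3 (13.8% and 24.0%). Without the male WT library the mural calls numbered 3 instead of 5. For astrocytes 0 genes were higher and 8 lower at an unadjusted p under 0.05 in edgeR, and the 7 genes DESeq2 called were all lower. Choroid plexus markers, with *Ttr* among them, held 159217 to 288446 CPM of the choroid plexus sums, and the median of all genes in that contrast was -0.64 against -0.04 to 0.13 in the other 5 contrasts. The adjusted p-values are from edgeR's quasi-likelihood test unless DESeq2 is named. They rest on 4 pools and do not measure the spread between mice. All genes shared 1 trend of the spread in the cell type fit. The same held for the sex and genotype fits of microglia, oligodendrocytes and all kept cells. A p-value from these fits is thus not set by a gene's own spread between pools.

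**Figure D1:**
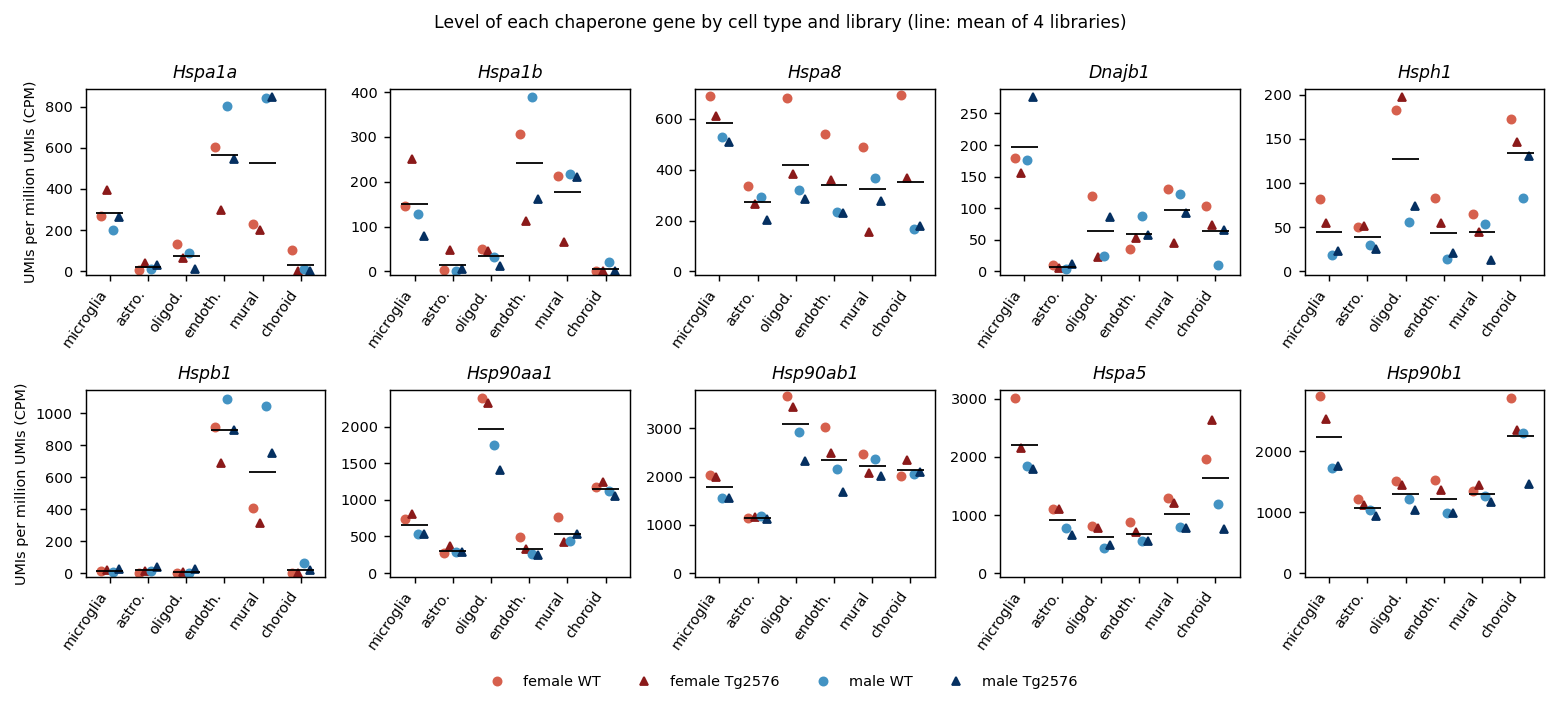
Level of each of the 10 genes (CPM of the cell type, linear axes from 0) in 6 cell types, with 1 point per library and a line at the mean of the 4 libraries. *Hspb1* was at 687 CPM or more in every endothelial library and at 24.9 CPM or less in every microglial library, while *Hsp90aa1* was highest in oligodendrocytes.

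*Hspb1*, which binds actin as well as unfolded protein, was the gene with the widest range among cell types. Endothelial cells held 915, 687, 1088 and 897 CPM, and mural cells held 409, 311, 1043 and 753 CPM. Microglia held 12.0, 18.8, 7.50 and 24.9 CPM, astrocytes 0, 15.6, 13.4 and 40.4 CPM, and oligodendrocytes 0, 5.82, 0 and 28.5 CPM. The lowest endothelial library was thus far above the highest library of microglia, astrocytes or oligodendrocytes, and the endothelial and mural ranges overlapped. Endothelial cells were higher by 4.58 ± 0.16 (SE, adjusted p = 1.98e-182) and mural cells by 3.79 ± 0.23 (adjusted p = 3.39e-61). OPCs had 0 UMIs of *Hspb1* in all 4 libraries, which allows up to 90.8, 399.8, 41.95 and 96.7 CPM.

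Counted per cell, with each cell thinned to 500 UMIs, *Hspb1* was found in 37.8%, 24.9%, 32.4% and 32.4% of endothelial cells. In microglia of the same libraries the shares were 0.915%, 1.12%, 0.920% and 0.630%. Without thinning the endothelial shares were 54.7%, 46.1%, 52.0% and 42.4% at median depths of 1159, 983.5, 1068.5 and 733 UMIs, and the microglial shares 1.53%, 1.16%, 1.15% and 1.48% at 1382.5, 1031, 1403 and 1031.5 UMIs. In astrocytes, the thinned shares were 0%, 0.719%, 0% and 0.402%, each below the microglial share of the same library. Whether the low shares in either type are expression was not tested. In mural cells, 27.6%, 20.0%, 13.8% and 29.7% of the thinned cells held the gene, and the part of endothelial RNA in these mural values was not tested. By CPM both male mural libraries were above both female ones for *Hspb1*, an order the thinned shares did not keep, since male WT had the lowest share. By CPM the endothelial marker list in mural cells was also higher in the male libraries (12133 and 13629 CPM, against 9959 and 4642 CPM in the female ones).

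The gene *Hsp25-ps1*, a pseudogene in RefSeq, followed *Hspb1* over the 24 sums of 6 types and 4 libraries (Pearson r = 0.98, a description over sums that share libraries). It took 64.9, 71.9, 67.5 and 56.8 UMIs for every 100 of *Hspb1* in all kept cells. The level of *Hspb1* is therefore uncertain by the UMIs that this copy could have drawn from it. The next genes most like it over the same sums were the vessel genes *Car4* (r = 0.96) and *Gata2* (r = 0.96). Of the other listed small heat shock genes, 3 of 6 were tested. *Cryab*, the lens crystallin gene that is abundant in myelinating glia, was higher in oligodendrocytes by 5.33 and lower in endothelial cells by a log2 difference of -3.41 and in microglia by -3.56. *Hspb8* was higher in endothelial cells (2.99) and *Hspb2* in mural cells (5.45). All 3 were higher in choroid plexus cells, against 13.8% of all genes.

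The inducible HSP70 genes had their highest mean levels in endothelial and mural cells, although in the female Tg2576 library microglia held more of both genes than either type. *Hspa1a* held 604, 296, 804 and 548 CPM in endothelial cells, and 229, 199.9, 839.5 and 845 CPM in mural cells. Microglia held 268, 393, 203 and 264 CPM, a range that overlapped with the endothelial one. Astrocytes held only 6.30, 41.5, 13.4 and 31.0 CPM, and choroid plexus cells 104, 0, 10.4 and 0 CPM, the latter from 3 UMIs or fewer in any library. Every endothelial, mural and microglial library was thus above every astrocyte, oligodendrocyte and choroid plexus library. *Hspa1a* was higher in endothelial cells by 2.58 ± 0.16 (adjusted p = 3.50e-55), in mural cells by 2.42 ± 0.22 (1.41e-26) and in microglia by 1.74 ± 0.17 (1.18e-22). It was lower in astrocytes by a log2 difference of -2.73 ± 0.41, in choroid plexus cells by -3.22 ± 0.54 and in oligodendrocytes by -0.79 ± 0.32.

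*Hspa1b* encodes nearly the same protein. Its levels were 308, 113, 389 and 161 CPM in endothelial cells and 145, 251, 128 and 79.7 CPM in microglia. Mural cells held 213, 66.6, 217 and 211 CPM, from 3 to 16 UMIs a library. It was higher in endothelial cells by 2.43 ± 0.21, in microglia by 1.92 ± 0.22 and in mural cells by 1.90 ± 0.33. The sum of both genes was 911, 409, 1193 and 709 CPM in endothelial cells, 413, 644, 330.2 and 344 CPM in microglia, and 9.45, 88.2, 13.4 and 37.2 CPM in astrocytes. In oligodendrocytes the sum was 183, 111, 119 and 22.8 CPM, the last from 4 UMIs. The male Tg2576 library was therefore the low one in oligodendrocytes, and the female Tg2576 library in endothelial cells.

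Immediate early genes, a stress-responsive set known to rise during dissociation, are given beside this pair. Summed over 16 genes, they reached 36040, 28484, 44660 and 46233 CPM in microglia and 13457, 8031, 21651 and 13383 CPM in endothelial cells. In mural cells they stood at 23909, 9862, 25484 and 23586 CPM, in oligodendrocytes at 2247 to 3639 CPM and in astrocytes at 800.3 to 1827 CPM. The female Tg2576 library was the lowest for both measures in endothelial and in mural cells. Microglia held more immediate early RNA than endothelial cells in all 4 libraries, and less of the HSP70 pair in 3 of 4, the exception being female Tg2576. The genes whose pattern over the 24 sums was most like that of *Hspa1a* were *Hspa1b* (r = 0.91), *Fos* (r = 0.89) and *Dusp1* (r = 0.88). For *Hspa1b*, after *Hspa1a*, they were *Nr4a1* (r = 0.90) and *Klf4* (r = 0.89). The part of the dissociation in these levels was not tested.

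**Figure D2:**
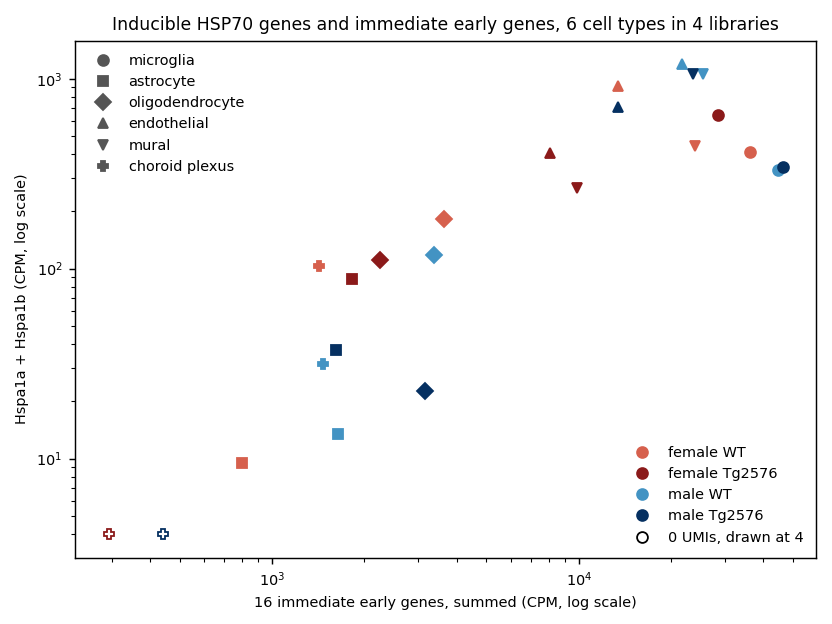
Summed level of *Hspa1a* and *Hspa1b* against the summed level of 16 immediate early genes (both in CPM on log axes), with 1 symbol per cell type and library, where shape gives the type and colour the library. Endothelial, mural and microglial sums lie at the upper right, at 267 CPM or more of the pair, while astrocyte sums lie at 88.2 CPM or less. Open symbols had 0 UMIs of the pair and are drawn at 4.

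*Dnajb1*, an HSP40 gene that rises with *Hspa1a* in the heat shock response, was highest in microglia. Microglia held 179.5, 155, 176 and 276 CPM, whereas astrocytes held 9.45, 5.19, 3.35 and 12.4 CPM, from 1 to 4 UMIs a library. Endothelial cells were in between, at 35.5, 52.9, 87.9 and 57.8 CPM. The lowest microglial library lay above the highest library of every other type in the test, the next type being mural cells at 44.4 to 131 CPM. Microglia were higher by 2.41 ± 0.18 (adjusted p = 2.17e-38) and astrocytes lower, by a log2 difference of -3.08 ± 0.41 (5.90e-13). In the endothelial and mural contrasts, where *Hspa1a* and *Hspa1b* were higher, *Dnajb1* was not called.

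Within microglia, 1175 cells formed a cluster led by *Ccl4* and other cytokine genes and 688 a cluster led by *P2ry12*. *Dnajb1* stood at 221, 269, 206 and 353 CPM in the *Ccl4* cluster and at 77.3, 38.2, 41.3 and 14.6 CPM in the *P2ry12* cluster. The order of *Hspa1b* was the opposite in 3 of 4 libraries, with 86.4, 258, 96.3 and 71.0 CPM in the *Ccl4* cluster and 289, 243, 268 and 109 CPM in the *P2ry12* cluster. *Hspa5* was higher in the *Ccl4* cluster in all 4 libraries (3457, 2477, 1944 and 2016 CPM, against 1947.5, 1831, 1362 and 1041 CPM), and *Hsp90b1* was lower there in all 4 (2774, 2320, 1708 and 1691 CPM, against 3194, 2741, 1775 and 1972 CPM). These are descriptions, since the clusters were formed from the same cells.

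*Hspa8*, the constitutive HSP70 gene that also uncoats clathrin vesicles, had a narrow range. Microglia held 691, 611, 527 and 509.9 CPM, oligodendrocytes 682, 384, 318 and 285 CPM, endothelial cells 540.5, 358, 233 and 231 CPM, and astrocytes 334, 265, 291 and 202 CPM. Microglia were higher by 1.08 ± 0.13 (adjusted p = 7.91e-17) and choroid plexus cells lower, by a log2 difference of -0.60 ± 0.24, which is close to the -0.64 of all genes there. Neighbouring types in the order of its mean levels overlapped at each step. *Hsph1*, the HSP110 gene, was low in most types. It held 183, 198, 56.1 and 74.1 CPM in oligodendrocytes and 173, 147, 83.5 and 131 CPM in choroid plexus cells, the latter from 2 to 8 UMIs a library. Microglia held 82.3, 54.6, 18.8 and 23.3 CPM. In the test *Hsph1* was higher in oligodendrocytes by 1.30 ± 0.25 (adjusted p = 1.87e-06) and in choroid plexus cells by 1.21 ± 0.40. It was lower in endothelial cells, by a log2 difference of -0.75 ± 0.27. OPCs and neurons, which were too few for the test, had higher mean levels than these types, with wide ranges. The means were 235.5 CPM (32.2 to 399.8) in OPCs and 178 CPM (0 to 364) in neurons.

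The cytosolic HSP90 genes were highest in oligodendrocytes. *Hsp90aa1*, the stress-inducible of the pair, held 2389, 2317, 1747 and 1408 CPM there. Choroid plexus cells held 1176, 1249, 1117 and 1048 CPM, microglia 742, 801, 527 and 531 CPM, and astrocytes 274, 368, 288 and 282 CPM. The oligodendrocyte libraries were above the libraries of the other 5 tested types without overlap, and neurons, which were too few for the test, held 1275, 750.1, 1632 and 1250.2 CPM. Oligodendrocytes were higher by 1.97 ± 0.13 (adjusted p = 4.40e-52) and choroid plexus cells by 0.79 ± 0.17. Endothelial cells, astrocytes and mural cells were lower, by log2 differences of -1.27 ± 0.16, -1.11 ± 0.16 and -0.56 ± 0.19.

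*Hsp90ab1*, the constitutive partner, was flatter. Oligodendrocytes held 3661, 3434, 2932 and 2319 CPM, endothelial cells 3018, 2498, 2163 and 1688 CPM, and microglia 2027, 2001, 1565 and 1559.6 CPM. Astrocytes were the lowest and the most even, at 1144, 1163, 1175 and 1121 CPM. The oligodendrocyte difference was 0.80 ± 0.15 (adjusted p = 2.35e-07) and the astrocyte difference -0.74 ± 0.16 (1.94e-05), and the other 4 types were not called. Pseudogenes followed both genes over the 24 sums, *Gm12346* (r = 0.98) and *Gm5844* (r = 0.90) for *Hsp90aa1*, and *Gm6368* (r = 0.94) for *Hsp90ab1*. *Gm12346* took 69.9 to 75.8 UMIs for every 100 of *Hsp90aa1* in all kept cells, 57.1 to 70.8 in microglia and 76.2 to 81.9 in oligodendrocytes. *Gm6368* took 15.3 to 18.1 for every 100 of *Hsp90ab1*. The division of reads between these genes and the pseudogenes is not given in the sources used here, so their absolute levels are uncertain. Among 10 tested HSP90 cochaperones, oligodendrocytes were higher for 3 and lower for 0, against 21.9% and 15.9% of all genes. Microglia were higher for 1 and lower for 4, against 36.0% and 23.3% of all genes. The higher one was *Fkbp5* (4.16 ± 0.34), a steroid-receptor cochaperone that glucocorticoids raise.

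By mean level the ER pair was highest in microglia and choroid plexus cells. *Hspa5* held 3019, 2159.8, 1838 and 1794 CPM in microglia, and 1972, 2645, 1190.4 and 753 CPM in choroid plexus cells. Astrocytes held 1096, 1105, 783 and 652 CPM, endothelial cells 884, 714, 554 and 548 CPM, and oligodendrocytes 815, 768, 430.5 and 484 CPM. Every microglial library was above every library of astrocytes, endothelial cells, oligodendrocytes and mural cells, while the choroid plexus range overlapped with the microglial one. Microglia were higher by 1.53 ± 0.13 (adjusted p = 1.96e-32), and endothelial cells and oligodendrocytes lower, each by a log2 difference of -0.79. Choroid plexus cells were not called for *Hspa5* (0.316 ± 0.175, adjusted p = 0.142). Their male Tg2576 value lay below every mural library (779 CPM or more). *Hsp90b1* held 2896, 2527, 1720.3 and 1756 CPM in microglia and 2872, 2351, 2297 and 1457 CPM in choroid plexus cells. Endothelial cells held 1519, 1353, 977 and 983 CPM. Microglia were higher by 0.90 ± 0.13 (adjusted p = 1.32e-10) and choroid plexus cells by 0.44 ± 0.17. Each gene of the pair was the one most like the other over the 24 sums (r = 0.83).

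Most tested genes of the lists that work with the ER pair were also higher in microglia. Of 13 listed genes of the unfolded protein response, 8 were tested and 8 were higher in microglia, against 36.0% of all genes. Their median difference was 1.64, against 0.06 for all genes. They included *Edem1* (4.39 ± 0.25), which sends misfolded glycoproteins to degradation, *Ppp1r15a* (3.16 ± 0.15), which restores translation after stress, *Herpud1* (2.34 ± 0.19), *Ddit3* (1.72 ± 0.19), *Xbp1* (1.55 ± 0.17) and *Atf4* (1.48 ± 0.14). Of 15 tested ER folding factors, 11 were higher in microglia and 1 was lower, against 36.0% and 23.3% of all genes. The higher ones included the lectin chaperone gene *Calr* (1.17 ± 0.12) and *Manf* (0.82 ± 0.16). In choroid plexus cells, where *Hsp90b1* was higher, the same response genes were higher for 0 and lower for 5 of 8 (median -1.64, against -0.64 for all genes). The folding factors were higher for 1 and lower for 2 of 15. Among all genes 13.8% were higher and 24.0% lower in choroid plexus cells. *Ppp1r15a* was lower there by a log2 difference of -3.48 ± 0.53. *Ppp1r15a* was higher in mural cells (2.97 ± 0.21) and in endothelial cells (1.19 ± 0.20), in which *Hspa5* was not higher.

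Over all 84 listed chaperone genes, of which 66 were tested, microglia were higher for 25 and lower for 14 (37.9% and 21.2%), which is near the 36.0% and 23.3% of all genes. Astrocytes were higher for 10 and lower for 5 (15.2% and 7.58%, against 30.1% and 15.2% of all genes), and oligodendrocytes higher for 12 and lower for 8 (18.2% and 12.1%, against 21.9% and 15.9%). Endothelial cells were higher for 9 and lower for 16 (13.6% and 24.2%, against 29.3% and 13.2%). Mural cells were higher for 4 and lower for 6 (6.06% and 9.09%, against 16.8% and 5.57%), and choroid plexus cells for 13 and 11 (19.7% and 16.7%, against 13.8% and 24.0%). In oligodendrocytes the J-domain gene *Dnajb2* was higher by 3.66 ± 0.16. Mitochondrial chaperone genes were lower for 3 of 5 in microglia and for 3 of 5 in endothelial cells, and higher for 3 of 5 in choroid plexus cells. For the 8 cytosolic chaperonin genes the only calls in the 6 contrasts were 1 lower in microglia and 1 higher in oligodendrocytes.

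**Figure D3:**
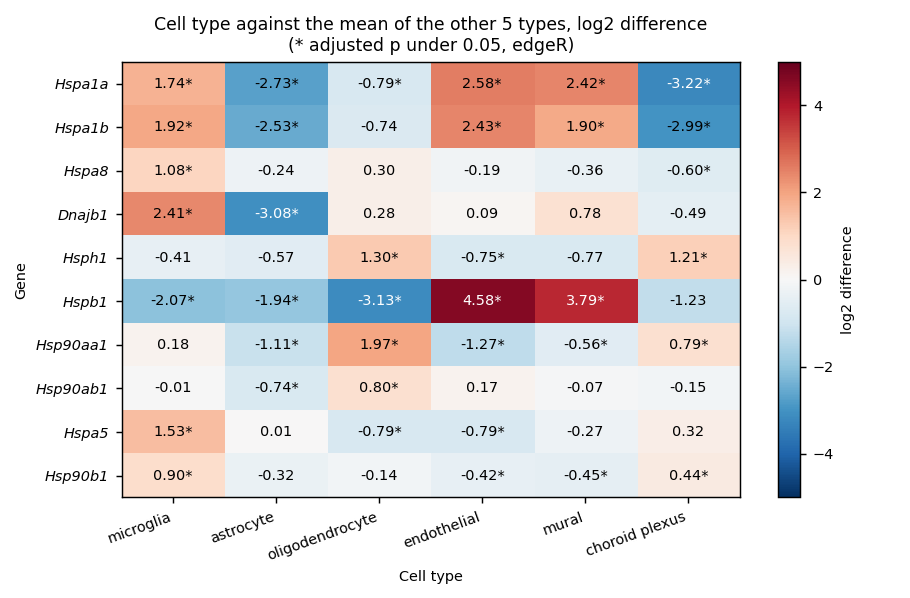
Log2 difference of each gene in each cell type against the mean of the other 5 types (24 sums, edgeR), with blue for lower, red for higher and an asterisk where the adjusted p was under 0.05. *Hspb1* spans the widest range, from -3.13 in oligodendrocytes to 4.58 in endothelial cells, and astrocytes hold no higher call.

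In neurons and OPCs the values rest on few UMIs. *Hspa1a* had 0 to 1 UMIs a library in neurons and 0 to 2 in OPCs. *Hsp90aa1* in OPCs was at 635, 133, 965 and 677 CPM, the female Tg2576 value from 1 UMI. *Hsp90ab1* in OPCs was at 1724, 1199, 2433 and 1643 CPM, within the range of the other types. *Hsph1* in OPCs was at 272, 399.8, 238 and 32.2 CPM, from 9, 3, 17 and 1 UMIs. Neither type entered a test.

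Male and female libraries were compared within 4 types and over all kept cells, with genotype in the model and 1 residual degree of freedom. In microglia 6 of the 10 genes were lower in the male libraries and 0 higher, against 2.98% lower and 2.85% higher among all 7605 genes. The median of the 10 was -0.51 and that of all genes 0.01. By DESeq2 0 of the 10 were called, 4 had an unadjusted p under 0.05, and for 4 that tool gave no adjusted p. *Hsph1* was at 82.3 and 54.6 CPM in the female and 18.8 and 23.3 CPM in the male libraries, and was lower by a log2 fold change of -1.69 ± 0.34 (adjusted p = 0.000119). Both female libraries were above both male ones. *Hsp90b1* was lower by -0.66 ± 0.15 (0.00120), *Hsp90aa1* by -0.56 ± 0.15 (0.00813) and *Hspa5* by -0.51 ± 0.15 (0.0194), with female and male libraries that did not overlap for any of the 3.

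*Hspa1b* was lower in male microglia by -0.94 ± 0.20 (adjusted p = 0.000237) and *Hspa1a* by -0.51 ± 0.16 (0.0387). The male to female difference of *Hspa1b* lay mainly in the Tg2576 libraries, -1.65 (95% interval -2.16 to -1.18) against -0.19 (-0.65 to 0.28) in WT. These intervals, and all those that follow, cover counting error only. For *Hspa1a* the WT ratio was -0.40 (-0.76 to -0.05) and the Tg2576 ratio -0.57 (-0.87 to -0.27), and the female WT value of 268 CPM lay near the male Tg2576 value of 264 CPM. Immediate early genes went the other way in microglia, with 36040 and 28484 CPM in the female and 44660 and 46233 CPM in the male libraries. *Dnajb1* was at 179.5 and 155 CPM in female and at 176 and 276 CPM in male microglia, and was not called.

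In the *Ccl4* cluster alone 4 of 9 tested genes were lower in the male libraries and 0 higher, against 0.850% and 0.588% of 6467 genes. In the *P2ry12* cluster alone edgeR called 0 of 7, of which 5 were lower at an unadjusted p under 0.05, and among all 3387 genes it called 0.118% lower and 0.0590% higher. *Hsph1* in the *Ccl4* cluster stood at 94.9 and 67.1 CPM in the female and 20.6 and 23.7 CPM in the male libraries. The male *P2ry12* clusters were small (88 WT and 156 Tg2576 cells), and *Hsph1* there rested on 1 and 3 UMIs. Among the 67 tested genes of the chaperone lists, 4 were higher in male microglia and 2 lower (5.97% and 2.99%, against 2.85% and 2.98% of all genes). The higher ones were the response genes *Ppp1r15a* (0.99 ± 0.15), *Atf4* (0.52 ± 0.16) and *Herpud1* (0.56 ± 0.18) and the small heat shock gene *Hspb3* (2.04 ± 0.59). The lower ones were the HSP90 cochaperone *Chordc1* (-0.96 ± 0.24) and *St13* (-0.50). By edgeR *Hspa5* and *Hsp90b1* were thus lower in the male libraries, and DESeq2 called neither. Of 9 tested genes of the unfolded protein response, 3 were higher there and 0 lower, against 2.85% and 2.98% of all genes. The median of these 9 was 0.265, against 0.011 for all genes.

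In oligodendrocytes 4 of 8 tested genes were lower in the male libraries and 0 higher, against 1.46% and 1.30% of 3086 genes. *Hsph1* was at 183 and 198 CPM in female and 56.1 and 74.1 CPM in male libraries, from 9 to 34 UMIs, and was lower by -1.60 ± 0.35 (adjusted p = 0.00117). *Hspa5* was lower by -0.85 ± 0.21 (0.00872), *Hspa8* by -0.85 ± 0.24 (0.0266) and *Hsp90aa1* by -0.65 ± 0.19 (0.0334). The female libraries were above the male ones for each of these 4 genes. By DESeq2 0 of the 8 were called, and 4 had an unadjusted p under 0.05. *Hspa1b* and *Hspb1* did not pass the filter on low counts.

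In astrocytes 1 of 6 tested genes was lower in the male libraries and 0 higher, against 0.546% and 0.565% of 5308 genes. It was *Hspa5*, at 1096 and 1105 CPM in the female and 783 and 652 CPM in the male libraries (-0.73 ± 0.13, adjusted p = 0.0137), while DESeq2 made 0 calls and had 1 gene at an unadjusted p under 0.05. In endothelial cells 0 of 10 were called by either tool, against 0.0542% lower and 0.126% higher among 5537 genes, and 7 of the 10 had an unadjusted p under 0.05 in edgeR and 4 in DESeq2. *Hsph1* there was at 82.8 and 55.3 CPM in female and at 13.5 and 21.3 CPM in male libraries (-1.99 ± 0.47, adjusted p = 0.262), from 4 to 23 UMIs. *Hspa8* was at 540.5 and 358 CPM against 233 and 231 CPM (-1.003 ± 0.22, adjusted p = 0.262). *Hspa1a* and *Hspb1* had values above 0 in endothelial cells (0.56 ± 0.20 and 0.23 ± 0.18) and were not called. *Ppp1r15a* was higher in male endothelial cells by 1.80 ± 0.23 (adjusted p = 0.00949).

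Over all kept cells, where the mix of types and the level within a type cannot be told apart, 5 of 10 genes were lower in the male libraries and 0 higher, against 3.78% and 3.25% of 12736 genes. They were *Hsph1* (-1.04 ± 0.20), *Hspa5* (-0.72 ± 0.18), *Hsp90b1* (-0.62 ± 0.18), *Hspa8* (-0.59 ± 0.16) and *Hspa1b* (-0.55 ± 0.18). DESeq2 called 2 of them, *Hspa5* and *Hsp90b1*, and gave no adjusted p for 4 of the 10. With cells thinned to 500 UMIs edgeR called 0 of the 10, 7 of which were lower at an unadjusted p under 0.05, against 0.0733% lower and 0.159% higher among 8182 genes. Of the 79 tested chaperone list genes, 1 was higher (*Ppp1r15a*, 0.84) and 3 were lower (*Chordc1*, -1.04, *Dnaja1*, -0.52, and *Sel1l*, -0.61).

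The mitochondrial share went with sex in every type, at 6.95% and 6.74% in female and 4.83% and 3.47% in male microglia. Sex, pool and mitochondrial share cannot be told apart in this design. In the barcodes left out for over 20% mitochondrial UMIs, set against the kept barcodes of the same library on totals without mitochondrial genes, *Hspa5* was lower by log2 ratios of -0.28 (-0.46 to -0.10) in female WT and -0.53 (-0.71 to -0.35) in female Tg2576. *Hsph1* was at 0.13 (-0.64 to 0.82) and 0.30 (-0.30 to 0.86), so its intervals included 0. *Hspa1a* was lower in these female barcodes by -1.65 (-2.54 to -0.89) and -2.53 (-3.45 to -1.74). The male libraries had few such barcodes (73 in WT and 46 in Tg2576). Their *Hspa5* ratios were -0.25 (-0.75 to 0.21) and -0.41 (-1.25 to 0.31), with intervals that included 0. In these male barcodes *Hsph1* rested on 5 and 0 UMIs, and *Hspa1a* had 0 UMIs in each library. With a limit of 5% in place of 20%, for which only the sum of all kept cells gave values, 4 of the 10 genes were lower in the male libraries and 1 was higher, against 1.25% and 2.36% of 7832 genes. The lower ones were *Hspa1b* (-1.32), *Hspa8* (-0.93), *Hspa5* (-0.89) and *Hsp90b1* (-0.83), and the higher one was *Hspb1* (1.43). *Hsph1* was not called there (-1.03, adjusted p = 0.106). The median of the 10 was -0.80 at this limit and -0.46 at 20%. The mix of types at 5% differed between the female and male libraries. The cluster nearest to the endothelial list held 4, 10, 32 and 127 cells. Those nearest to the microglial list held 113, 95, 181 and 335 cells, and 63, 112, 50 and 124 cells. Mix and level within a type cannot be told apart in these sums, and the part of the mix was not tested.

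**Figure D4:**
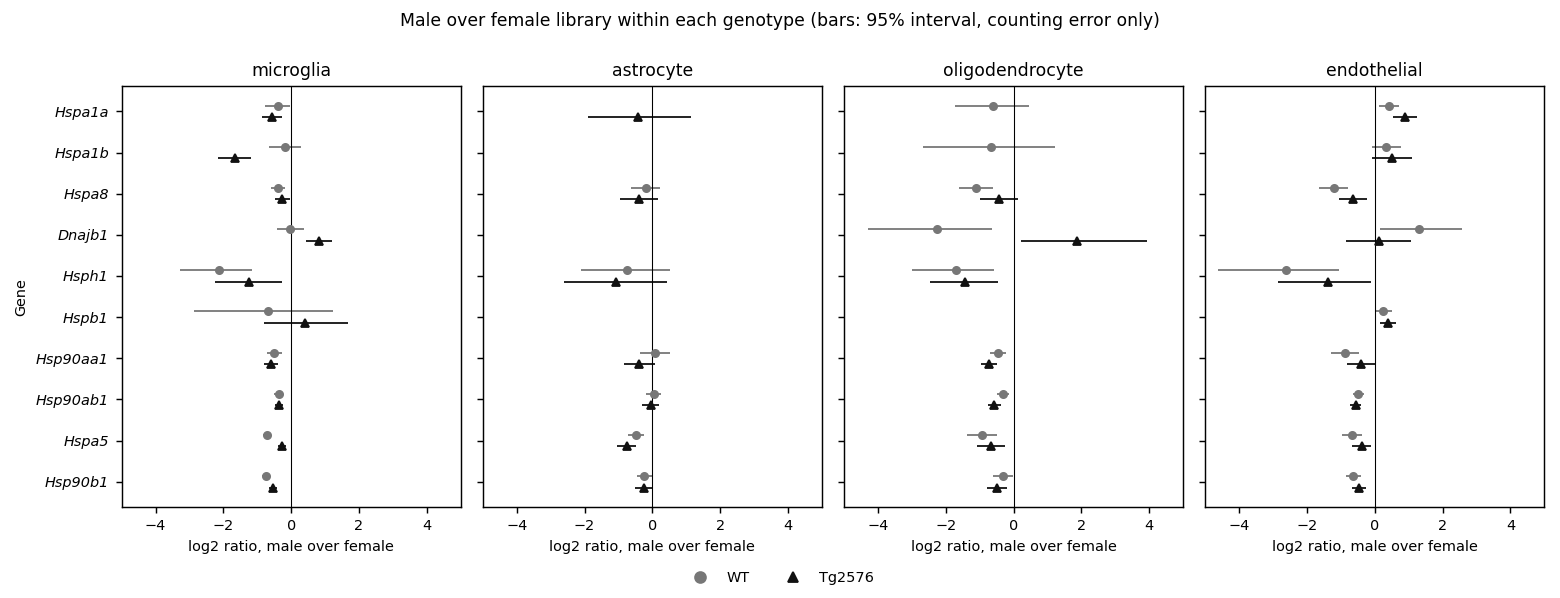
Log2 ratio of the male over the female library within WT (circles) and within Tg2576 (triangles) for each gene in 4 cell types, with 95% intervals for counting error and genes with 3 or fewer UMIs in a library left out. In WT microglia all 10 ratios lie below 0, 7 of them with intervals below 0, and *Hsph1* lies farthest left at -2.13.

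The study's own contrast was Tg2576 against WT, and none of the 10 genes passed the test in any of the 5 fits, by edgeR or by DESeq2. Beside that count of 0, the share called among all genes, in either direction, was 0.539% in microglia, 0.0565% in astrocytes, 0.227% in oligodendrocytes, 0% in endothelial cells and 0.832% over all kept cells. At an unadjusted p under 0.05 edgeR had 2 of 10 genes in microglia, 1 of 6 in astrocytes, 2 of 8 in oligodendrocytes, 4 of 10 in endothelial cells and 1 of 10 over all kept cells. The same threshold was met by 9.07%, 7.05%, 6.97%, 5.18% and 8.11% of all genes in these fits. DESeq2 had 2 in endothelial cells and 0 in the other 4 fits. Of the chaperone list genes edgeR called 0 of 67 in microglia, where 5 were at an unadjusted p under 0.05. Within the *Ccl4* cluster alone edgeR called 0 of 9 tested members, and 3 were higher at an unadjusted p under 0.05. In the *P2ry12* cluster it called 0 of 7, and 3 were lower at that threshold. The medians were 0.132 and -0.573, against -0.008 and 0 for all genes. Female Tg2576 microglia lay mostly in the *P2ry12* cluster, and those of each other library mostly in the *Ccl4* cluster. The part of this mix in the microglial values was not tested.

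In microglia *Hspa1a* was at 268 and 203 CPM in the WT and at 393 and 264 CPM in the Tg2576 libraries (0.42 ± 0.16, adjusted p = 0.324). Within each sex the ratio was above 0, 0.55 (0.26 to 0.84) in females and 0.38 (0.02 to 0.75) in males. *Hspa5* was at 3019 and 1838 CPM in WT and 2159.8 and 1794 CPM in Tg2576 microglia (-0.31 ± 0.15, adjusted p = 0.523). Its ratio was -0.48 (-0.59 to -0.38) in females and -0.04 (-0.16 to 0.09) in males. *Hsp90b1* likewise had -0.20 (-0.30 to -0.10) in females and 0.03 (-0.10 to 0.16) in males. The difference between the sexes was not tested. For *Hsp90ab1* the microglial ratio was -0.02 (-0.13 to 0.10) in females and 0.00 (-0.14 to 0.13) in males. The paper that used the Tg2576 data as a comparison reported this gene as significantly lower in Tg2576 microglia of both sexes. Its statistics drew on measurements of single cells, while the ratios here are of library sums, so the measures are unlike.

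In endothelial cells all 10 values were below 0, with a median of -0.39 against -0.01 for all genes, and the 10 values share the same 4 libraries. *Hspa1b* was at 308 and 389 CPM in the WT and at 113 and 161 CPM in the Tg2576 libraries, from 78, 115, 47 and 53 UMIs. The WT libraries lay above the Tg2576 ones, and the difference was -1.41 ± 0.22 with an adjusted p of 0.102. Within females the ratio was -1.45 (-1.9997 to -0.91) and within males -1.27 (-1.77 to -0.79). *Hspa1b* passed the threshold when no low count filter was used (adjusted p = 3.92e-05), with no mitochondrial limit (0.00258), with cells thinned to 500 UMIs (0.000588) and without the cluster led by *Gbp8* (0.0249). DESeq2 gave an adjusted p of 0.9999. *Hspa1a* was at 604 and 804 CPM in WT and 296 and 548 CPM in Tg2576 libraries (-0.84 ± 0.20, adjusted p = 0.769), with ratios of -1.03 (-1.38 to -0.68) and -0.55 (-0.84 to -0.27). It passed the threshold only with no filter on low counts (0.0285).

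Other measures of the endothelial libraries differed beside these values. The immediate early genes were at 13457 and 21651 CPM in the WT and 8031 and 13383 CPM in the Tg2576 libraries. Erythrocyte genes summed to 10135 CPM in the female WT library and to 0, 16.9 and 12.2 CPM in the others. Of the 60 cells of the cluster led by *Gbp8*, a set of interferon-induced GTPase genes, 40 came from female Tg2576 mice, 19 from male WT mice and 1 from male Tg2576 mice. The part of these measures in the *Hspa1a* and *Hspa1b* values was not tested, apart from the fit without the *Gbp8* cluster. *Hspb1* was at 915 and 1088 CPM in WT and 687 and 897 CPM in Tg2576 endothelial cells (-0.41 ± 0.18, adjusted p = 0.897), with both Tg2576 libraries below both WT ones.

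In oligodendrocytes *Hspa1a* was at 133 and 87.3 CPM in the WT and at 64.0 and 11.4 CPM in the Tg2576 libraries, from 19, 14, 11 and 2 UMIs (-1.60 ± 0.52, adjusted p = 0.288). *Hspa8* was at 682 and 318 CPM against 384 and 285 CPM (-0.54 ± 0.24, adjusted p = 0.601). In astrocytes *Hspa8* was at 334 and 291 CPM against 265 and 202 CPM (-0.48 ± 0.18, adjusted p = 0.660), with the Tg2576 libraries below the WT ones. *Hsp90ab1* in astrocytes had ratios of 0.02 (-0.22 to 0.27) in females and -0.07 (-0.28 to 0.15) in males. Over all kept cells all 10 values were below 0, from -0.01 for *Dnajb1* to -0.36 for *Hspa8* (± 0.16, adjusted p = 0.503).

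**Figure D5:**
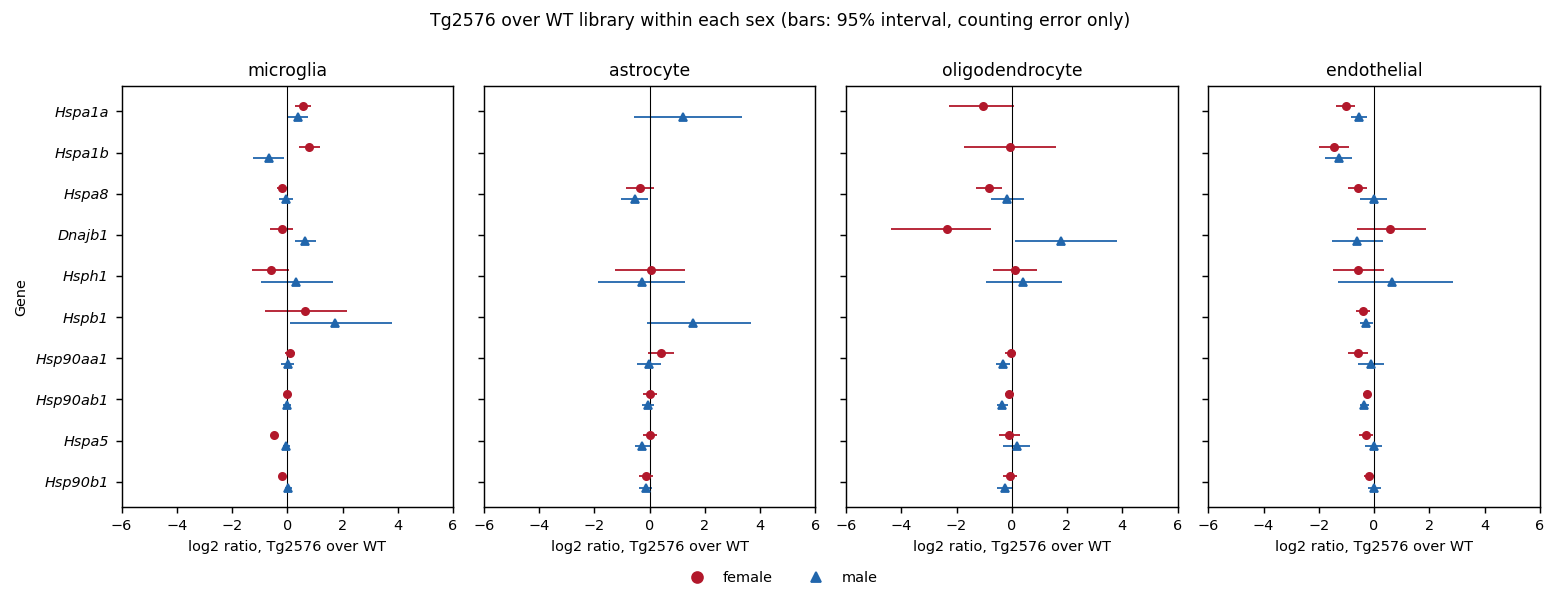
Log2 ratio of the Tg2576 over the WT library within females (circles) and within males (triangles) for each gene in 4 cell types, with 95% intervals for counting error and genes with 3 or fewer UMIs in a library left out. In endothelial cells *Hspa1a* and *Hspa1b* lie below 0 in both sexes, at -1.03 and -0.55 and at -1.45 and -1.27, while most intervals in microglia and astrocytes span 0.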

How the data were processed

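The single-cell Drop-seq libraries of dissociated cortex numbered 4, 1 per sex and genotype and each a pool of 9 mice. The authors deposited raw UMI counts per gene and barcode, which the submitters' processing notes tie to mm10 and Seurat 3.1.4. The aligner, the annotation and the treatment of reads that match several genes are not given in the sources used here. No normalisation preceded the counts.

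Barcodes with 200 to 7000 genes and at most 20% mitochondrial UMIs were kept. Seurat 5.3.0 with sctransform 0.4.2, under R 4.3.3, transformed the counts. Clusters came from 2500 variable genes, less the 10 members, the chaperone lists, mitochondrial and sex-linked genes, with 19 principal components and a resolution of 0.5. A cluster took the name of a fixed list when at least 3 of its markers, and 50% of the list, reached 2 times their level in the remaining cells. Unnamed clusters entered only the sum of all kept cells. No doublets were removed in the main setting, and Scrublet (scanpy 1.11.5) called 92, which were left out in an alternative.

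Sums of UMIs were formed for every cell type of every library. edgeR 4.0.16 (quasi-likelihood F test, TMM factors, filterByExpr, Benjamini-Hochberg over all genes tested, threshold 0.05) compared each type with the other types in 24 sums with library as a block (15 residual degrees of freedom). It also compared sex and genotype in 1 additive model per type (1 residual degree of freedom). In all fits but those of astrocytes and endothelial cells the estimated prior degrees of freedom were infinite, so all genes shared 1 trend of the spread. The standard error is the fold change divided by the root of the F statistic. Ratios within a sex or genotype have exact conditional binomial 95% intervals, and levels are UMIs per 1000000 UMIs. A count of 0 allows up to 3 UMIs. PCR duplicates are removed by the UMIs, but intervals cover counting error only. Like patterns are Pearson correlations of log2 CPM with a prior count of 2.

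The members and lists were chosen with earlier results of these data known. The text names the 10 members throughout, the other chaperone genes by their lists, those with the smallest adjusted p in each contrast first, and the 3 genes most like each member. *Herpud1*, *Ddit3*, *Xbp1*, *Atf4*, *Manf*, *Calr* and *Hspb2* in cell type contrasts and a 4th gene of a list were named after their values were seen. The fits within each microglial cluster and without the *Gbp8* cluster were also chosen after seeing the data. Alternatives were other mitochondrial limits, 500 genes per cell, resolution 1, all variable genes, doublets left out, DESeq2 1.42.0 and its size factors, no filter on low counts, totals without mitochondrial genes and *Malat1*, cells thinned to 500 UMIs, and each library left out. Promoter windows are from RefSeq.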

Additional observations from a re-analysis of the deposited data

Results flagged for a closer look

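Of 55 pairs of Tg2576 over WT ratios (each gene, and the sum of *Hspa1a* and *Hspa1b*, in each of 4 types and in all kept cells), 3 had intervals on opposite sides of 0 in the sexes. *Dnajb1* over all kept cells stood at -0.43 in females (log2 ratio, 95% interval -0.77 to -0.09) and at 0.46 in males (0.16 to 0.77). In the microglial *Ccl4* cluster it was at 221 and 269 CPM in female WT and Tg2576, and at 206 and 353 CPM in male. In the *P2ry12* cluster it was at 77.3 and 38.2 CPM in female and 41.3 and 14.6 CPM in male, the latter from 4 and 2 UMIs. Within each cluster the direction was thus the same in both sexes. The part of the cell mix in the sums of all kept cells was not tested. *Dnajb1* in oligodendrocytes had -2.36 (-4.39 to -0.74) in females, from 17 UMIs in the WT and 4 in the Tg2576 library, and 1.78 (0.13 to 3.83) in males, from 4 and 15 UMIs. *Hspa1b* in microglia had 0.79 (0.41 to 1.18) in females and -0.68 (-1.24 to -0.12) in males, while the sum of *Hspa1a* and *Hspa1b* had 0.64 (0.41 to 0.87) and 0.06 (-0.24 to 0.36). With 1 library per sex and genotype, the difference between the sexes was not tested.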

How the results depend on the processing

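No value changed direction with a call under any alternative run. Counts of members called that moved by over 1.5 times were as follows, and their cause was not tested. The genotype count in endothelial cells was 0 and became 1 with cells thinned to 500 UMIs, with no mitochondrial limit and without the *Gbp8* cluster, and 2 with no filter on low counts. The sex count over all kept cells was 5, and 2 with DESeq2 and 0 with thinned cells. In astrocytes it was 1, and 0 with DESeq2, thinned cells or a mitochondrial limit of 10%, and 2 with no mitochondrial limit. In endothelial cells it was 0, and 1 with thinned cells, 2 with no mitochondrial limit and 4 with no filter. In microglia it was 6, and 0 with DESeq2 or in the *P2ry12* cluster only. In oligodendrocytes it was 4, and 0 with DESeq2 or a limit of 10%, 1 with thinned cells or without mitochondrial genes and *Malat1*, and 2 without doublets or with no filter. Leaving out a library gave 3 to 4 mural calls (5 with all libraries, 3 without male WT), 7 to 8 in microglia, 4 to 7 in astrocytes, 5 in oligodendrocytes, 5 to 7 in endothelial cells and 4 to 7 in choroid plexus cells. For single genes, 749 cell type values stayed on their side of the threshold, 37 lost and 30 gained a call, and 34 changed sign with no call in either fit. For sex 406 stayed, 48 lost, 10 gained and 9 changed sign in this way, and for genotype 453 stayed, 5 gained and 23 changed sign in this way. At a limit of 5% only all kept cells could be fitted. Endothelial cells gave no value at 10%, with 500 genes or at resolution 1, and choroid plexus cells none at 10%, with 500 genes or after thinning. No paired analysis was possible because each group of sex and genotype has 1 library, so no replicate numbers are shared. Library was a block in the cell type fit. Low UMI counts limit *Hspb1*, *Hsph1*, *Hspa1b* and *Dnajb1* outside their main types.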
